A study of Mus musculus with 3 samples.

Results

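The 10 genes described here are splicing regulators. *Rbfox2* is linked to the epithelial to mesenchymal transition. The others are linked to the epithelial state (*Esrp1* and *Esrp2*), to differentiated cells (*Mbnl1*, *Mbnl2*, *Mbnl3*, and *Ptbp2*), and to pluripotent or dividing cells (*Ptbp1*, *Srsf2*, and *Son*). These members were chosen by name, and all 10 were found among the 55421 named genes of the deposited table. Gene expression was measured by RNA-seq of polyA RNA in 3 libraries of ALSCs (replicates 1, 2, and 3), a mouse stem cell type derived from epiblasts of gastrulae at embryonic day 6.5 and kept in N2B27 medium with Activin A and LIF on fibronectin. The embryos came from ICR females mated with GOF/GFP males, which carry an Oct4 reporter, and the lines were grown from colonies picked by hand. Whether the libraries come from 1 line or several was not stated. All libraries share this background and medium, and there is no second condition. The study calls its RNA-seq replicates biological, but the labels do not say whether the libraries came from separate cultures, so p-values measure only the spread between these samples, which may be technical.

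Most mouse genes yield several mRNAs, because exons can be joined or skipped. RNA-binding proteins decide this by sitting on the pre-mRNA near an exon and helping or blocking the spliceosome. SR proteins such as SRSF2 mostly favour inclusion, PTB proteins mostly repress exons, and ESRP, RBFOX, and MBNL proteins can do either according to where they bind. Epithelial cells are known for ESRP-dependent isoforms, pluripotent cells for high PTBP1 and low MBNL activity, and neurons for the replacement of PTBP1 by PTBP2. The counts analysed here are sums per gene and do not tell isoforms apart, so they show the amount of regulator mRNA and not splicing itself.

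The libraries held 18088505, 18724038, and 18037342 counts on named genes in replicates 1, 2, and 3. FPKM, the authors' count divided by the gene length and by the library's total on named genes, was computed for each gene, and 1 read on a gene of 1 kb was worth 0.0534 to 0.0554 FPKM. Of the named genes, 11125 (20.1%) reached 1 FPKM in all libraries, here called expressed genes. All 8 pluripotency markers reached this level, led by *Pou5f1* (Oct4) at 648 ± 25.3 FPKM (SD, n = 3), as did 6 of 8 epithelial markers. Common variation between the libraries, edgeR's biological coefficient of variation, was 0.153, and 0.0531 without replicate 1, which thus stood apart. A chi-square test of each gene's counts against the TMM-scaled library sizes asked whether the libraries differed, with Benjamini-Hochberg adjustment over all 16944 genes with at least 10 counts. At an adjusted p below 0.05 it called 8003 genes, or 47.2% of those tested. The test allows for counting error only and not for ordinary variation between cultures.

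The levels of the 10 genes spanned 570-fold. *Srsf2* and *Ptbp1* were the only members above 100 FPKM on average, *Son*, *Rbfox2*, *Ptbp2*, and *Esrp1* lay between 4 and 20 FPKM, and *Mbnl2*, *Esrp2*, *Mbnl3*, and *Mbnl1* lay below 2 FPKM. Of the members, 7 were expressed genes, and none was at or under the limit of 3 counts that a count of 0 allows, which was 0.00889 FPKM for *Mbnl1*. All neighbours in this order had ranges that did not overlap, except *Son* and *Rbfox2*.

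**Figure D1:**
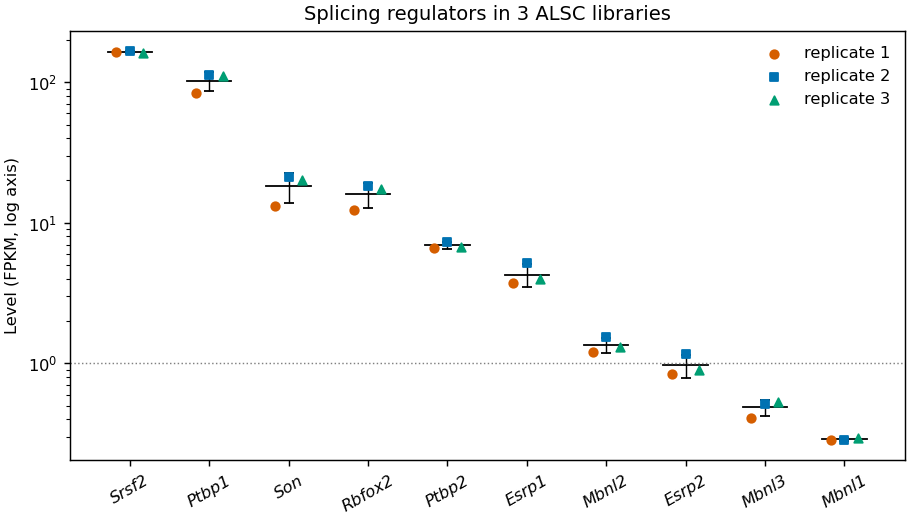
Level of each splicing regulator in FPKM on a log axis, with 1 point per ALSC library, the mean as a line, and the SD as a bar. The members run from Srsf2 at 164 FPKM to Mbnl1 at 0.288 FPKM, and the dotted line marks 1 FPKM. Replicate 1 has the lowest FPKM for 9 of 10 members, all but Srsf2, and the lowest TMM-scaled count for 7 of 10. With scaling to the total count, as in FPKM, the median gene was slightly lower in replicate 1 (log2 ratio -0.0696). No share over all genes is given beside these counts, and long genes were mostly lower in replicate 1. The counts are therefore not a result about the members.

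*Srsf2* encodes an SR protein of the nuclear speckles that promotes exon inclusion and limits its own mRNA through splicing. It was counted 8824, 9252, and 8606 times, which gave 165, 167, and 161 FPKM in replicates 1, 2, and 3 (164 ± 2.91, SD, n = 3). The libraries lay close together, and the level was above that of 96.9% of the expressed genes. Scaled with TMM, replicate 1 was slightly above the others (log2 ratio to the mean of replicates 2 and 3 of 0.076, chi-square test, adjusted p = 0.000433). This difference was small and its direction depended on the scaling, since the ratio was -0.035 once each library's dependence on gene length and GC content was corrected (adjusted p = 0.0232), and 0.0065 with scaling to the total count (adjusted p = 0.113). The gene is at chr11:116849901-116853094 (GRCm38) on the minus strand. It shares 460 exon bases, 15.6% of its own, with *Mettl23* and 288 with *Mfsd11*, both on the opposite strand. The library kit does not mark strand, so reads on these bases cannot be told apart. *Mettl23* reached 9.80 ± 1.02 FPKM and *Mfsd11* 2.48 ± 0.243 FPKM. Of the stretches of 50 bases in the longest coding transcript of *Srsf2*, 64.8% occurred in no transcript of another gene. How the counting program treated shared reads is not given, so their effect on the level of *Srsf2* is not known. The promoter window of this highest member is shown for comparison with the lowest member below. It covers 250 bases before and 50 after the RefSeq start, read from GRCm38.p6 at chr11:116853045-116853344 on the minus strand, with CG dinucleotides in capitals. It held 39 CG, more than 95.6% of the 32851 RefSeq mouse promoter windows, whose median is 7, and it was 1 of 2 member windows with the letters TATAAA on either strand, which 13.6% of all windows hold.
Srsf2: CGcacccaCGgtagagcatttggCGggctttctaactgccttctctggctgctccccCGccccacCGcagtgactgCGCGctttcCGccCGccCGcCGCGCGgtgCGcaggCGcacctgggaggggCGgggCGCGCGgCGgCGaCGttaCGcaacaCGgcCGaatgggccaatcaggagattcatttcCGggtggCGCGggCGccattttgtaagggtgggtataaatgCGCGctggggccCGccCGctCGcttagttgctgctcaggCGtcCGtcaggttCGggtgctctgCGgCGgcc

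*Son* encodes a very large speckle protein that holds splicing factors together and is required for correct splicing of pluripotency genes in human embryonic stem cells. It was counted 3577, 5880, and 5461 times, or 13.3, 21.1, and 20.3 FPKM (18.2 ± 4.30, SD, n = 3), above 72.1% of expressed genes. Replicate 1 was clearly the lowest and the other libraries were close (log2 ratio -0.57, chi-square test, adjusted p = 2.59e-93). Without replicate 1, no difference was called (adjusted p = 0.562). *Son* spans chr16:91647506-91679221 and has 14907 bases of exons, and the length and GC correction left a log2 ratio of only -0.079 (adjusted p = 0.0449). Of its exon bases, 103 overlap *Donson* on the opposite strand, which was at 9.79 ± 0.594 FPKM. Because *Son* moved and *Srsf2* hardly did, the FPKM ratio of *Srsf2* to *Son* was 12.4 in replicate 1 against 7.93 and 7.94 in replicates 2 and 3.

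*Ptbp1* encodes the polypyrimidine tract binding protein of dividing cells, a repressor of neuronal exons and of the exon that its neural relative *Ptbp2* needs for a stable mRNA. *Ptbp1* was counted 7165, 9975, and 9477 times, or 83.6, 112, and 111 FPKM (102 ± 16.2, SD, n = 3), above 94.9% of expressed genes. Replicate 1 was again lowest (log2 ratio -0.35, chi-square test, adjusted p = 1.18e-65), while replicates 2 and 3 were not called different (adjusted p = 0.972). For this gene most of the difference was still there after the length and GC correction (log2 ratio -0.26, adjusted p = 5.86e-37). *Ptbp1* lies at chr10:79854427-79864771 on the plus strand. It contains the whole of *Gm17134*, an antisense gene of 437 bases that was listed at 0, and shares 251 exon bases with *Plppr3* and 295 with *E130317F20Rik*, on the opposite strand, which were at 1.35 ± 0.114 and 2.21 ± 0.269 FPKM. Of the stretches of 50 bases in the longest coding transcript of *Ptbp1*, 77.4% occurred in no transcript of another gene.

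*Ptbp2*, at chr3:119718742-119784466, was counted 1104, 1257, and 1118 times, or 6.65, 7.32, and 6.76 FPKM (6.91 ± 0.358, SD, n = 3). Its libraries were not called different (chi-square test, adjusted p = 0.383). Since genes of its length were mostly lower in replicate 1, the length and GC correction set replicate 1 above the others (log2 ratio 0.21, adjusted p = 0.000708), against -0.011 before. *Ptbp3*, the third paralog, was counted 1217, 1669, and 1402 times and reached 10.4 ± 1.46 FPKM, with the lowest count in replicate 1 (adjusted p = 6.04e-08). *Ptbp1* thus made up 85.4% ± 1.19 of the family's summed FPKM, *Ptbp3* 8.75% ± 0.543, and *Ptbp2* 5.85% ± 0.756 (SD, n = 3). The ratio of *Ptbp1* to *Ptbp2* was 12.6, 15.4, and 16.4 in replicates 1, 2, and 3. These values depend on length, because 46.3% of the *Ptbp2* exon bases belong to noncoding transcripts only. With the longest coding transcript as length, the ratio was 7.74, 9.46, and 10.1, and *Ptbp2* (9.37%) came before *Ptbp3* (6.30%).

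The promoter windows of the PTB pair are shown because the genes are paralogs with very different levels. Both are CG-rich, with 22 CG for *Ptbp1* (chr10:79854182-79854481, plus strand) and 36 for *Ptbp2* (chr3:119783339-119783638, minus strand), so the paralog with the lower level held more CG. Neither held the TATAAA letters.
Ptbp1: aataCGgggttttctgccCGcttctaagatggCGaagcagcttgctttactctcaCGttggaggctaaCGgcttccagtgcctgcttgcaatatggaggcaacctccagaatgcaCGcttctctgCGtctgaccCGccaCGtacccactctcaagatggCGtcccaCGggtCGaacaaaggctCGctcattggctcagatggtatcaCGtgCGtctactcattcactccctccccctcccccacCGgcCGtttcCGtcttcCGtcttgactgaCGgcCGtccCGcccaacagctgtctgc
Ptbp2: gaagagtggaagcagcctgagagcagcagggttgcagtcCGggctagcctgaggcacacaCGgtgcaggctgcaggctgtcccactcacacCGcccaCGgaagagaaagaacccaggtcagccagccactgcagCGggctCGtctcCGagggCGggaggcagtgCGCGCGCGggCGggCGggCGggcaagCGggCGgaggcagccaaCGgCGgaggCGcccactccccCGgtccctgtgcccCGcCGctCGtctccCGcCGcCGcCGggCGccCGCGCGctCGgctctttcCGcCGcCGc

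**Figure D2:**
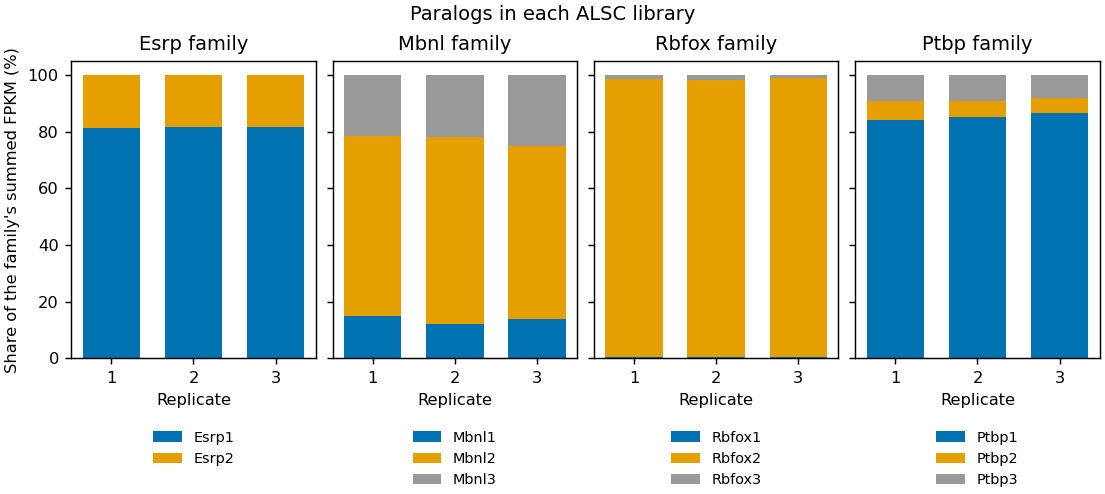
Share of each paralog in the summed FPKM of its family, in percent, as stacked bars for each ALSC library. Esrp1 holds 81.5% and Rbfox2 98.2% of their families on average, Ptbp1 85.4%, and Mbnl2 63.5%, with little difference between the libraries.

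*Rbfox2* encodes an RBFOX protein that acts in the splicing change of the epithelial to mesenchymal transition. It was counted 1806, 2798, and 2546 times, or 12.3, 18.4, and 17.3 FPKM (15.99 ± 3.26, SD, n = 3). Replicate 1 was the lowest and did not reach the others (log2 ratio -0.47, chi-square test, adjusted p = 9.98e-32), and replicates 2 and 3 were not called different (adjusted p = 0.397). After the length and GC correction, the log2 ratio was -0.19 (adjusted p = 2.47e-05). The gene spans 228 kb at chr15:77078990-77307004, and its exons overlap no other gene. In its introns, *1700109K24Rik* had 0, 8, and 7 counts, and *Gm24056*, *Gm49411*, and *4833412C15Rik* were listed at 0, as were *Gm37488* and *Gm37589* in *Mbnl1*, *Mir6910* in *Ptbp1*, and *Gm42804* in *Ptbp2*. *Rbfox2* made up 98.2% ± 0.314 of the family, and the neuronal paralogs were below 0.5 FPKM. *Rbfox1* was counted 5, 6, and 5 times (0.0662 ± 0.00573 FPKM), against a limit of 0.0378 FPKM, and *Rbfox3*, the NeuN antigen of mature neurons, 18, 34, and 20 times (0.225 ± 0.0764 FPKM), against a limit of 0.0286 FPKM. *Son* and *Rbfox2* lay close in level, with overlapping ranges, although *Son* was higher in all 3 libraries.

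*Esrp1* and *Esrp2* encode the epithelial splicing regulatory proteins, which switch *Fgfr2*, *Cd44*, *Ctnnd1*, and *Enah* to their epithelial isoforms and are lost when cells become mesenchymal. *Esrp1*, at chr4:11331933-11386783, was counted 422, 609, and 450 times, or 3.70, 5.16, and 3.96 FPKM (4.27 ± 0.779, SD, n = 3). Here replicate 2 stood above both other libraries, which lay close together. The libraries differed (chi-square test, adjusted p = 1.495e-05), also without replicate 1 (adjusted p = 0.00196), but not without replicate 2 (adjusted p = 0.786). *Esrp2*, at chr8:106130319-106136974, was counted 66, 95, and 70 times, or 0.841, 1.17, and 0.894 FPKM (0.968 ± 0.176, SD, n = 3). It was also highest in replicate 2, but at these counts no difference was detectable (adjusted p = 0.222). The proportion of the pair was nearly the same, with *Esrp1* at 81.5%, 81.5%, and 81.6% of the family and 4.40, 4.41, and 4.43 times the FPKM of *Esrp2*. Counting error on 66 to 95 counts of *Esrp2* is larger than these differences, so the counts cannot show that the proportion is this constant. A share of the *Esrp2* sequence is less certain, since 219 of its exon bases overlap *Nfatc3* on the opposite strand, which at 6.49 ± 1.44 FPKM was the more abundant gene, and 119 overlap *1810019D21Rik*, with 15, 5, and 9 counts. *Esrp1* shares 127 exon bases with *Gm26663*, which was not analysed here.

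The *Mbnl* genes encode the muscleblind proteins, which promote the exon choices of differentiated cells and repress those of embryonic stem cells. *Mbnl2*, at chr14:120275669-120431697, was counted 261, 346, and 283 times, or 1.20, 1.54, and 1.31 FPKM (1.35 ± 0.173, SD, n = 3). *Mbnl3*, at chrX:51117269-51206532, was counted 65, 84, and 84 times, or 0.411, 0.513, and 0.533 FPKM (0.486 ± 0.0653). *Mbnl1*, at chr3:60472830-60629750, was counted 96, 100, and 100 times, or 0.284, 0.285, and 0.296 FPKM (0.288 ± 0.00685). None of these was called different between the libraries (chi-square test, adjusted p = 0.0820 for *Mbnl2*, 0.499 for *Mbnl3*, and 0.937 for *Mbnl1*), although *Mbnl2* was with scaling to the total count (adjusted p = 0.0183) and without replicate 3 (adjusted p = 0.0421). *Mbnl2* made up 63.5% ± 2.33 of the family, *Mbnl3* 22.8% ± 1.81, and *Mbnl1* 13.7% ± 1.38 (SD, n = 3). Of these genes, *Mbnl2* shares 86 exon bases with *Gm26679* on the opposite strand, which had 1 count in all libraries together.

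The place of *Mbnl1* as the lowest member rests on the gene length used. The table gives it 18717 bases, the union of all annotated exons, of which 67.3% belong to noncoding transcripts only, against 60.4% for *Mbnl2* and 40.4% for *Mbnl3*. Its longest coding transcript has 5655 bases. With that length, *Mbnl1* was at 0.954 ± 0.0227 FPKM and *Mbnl3* at 0.913 ± 0.123 FPKM, and their ranges overlapped, with *Mbnl1* higher in 1 of 3 libraries. *Mbnl2* was then at 3.56 ± 0.455 FPKM and remained the leading *Mbnl* gene, at 65.5% of the family. *Rbfox2* (18.8 ± 3.85 FPKM) and *Ptbp2* (16.8 ± 0.869 FPKM) moved close together with overlapping ranges, *Son* no longer overlapped *Rbfox2*, and the levels spanned 280-fold.

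**Figure D3:**
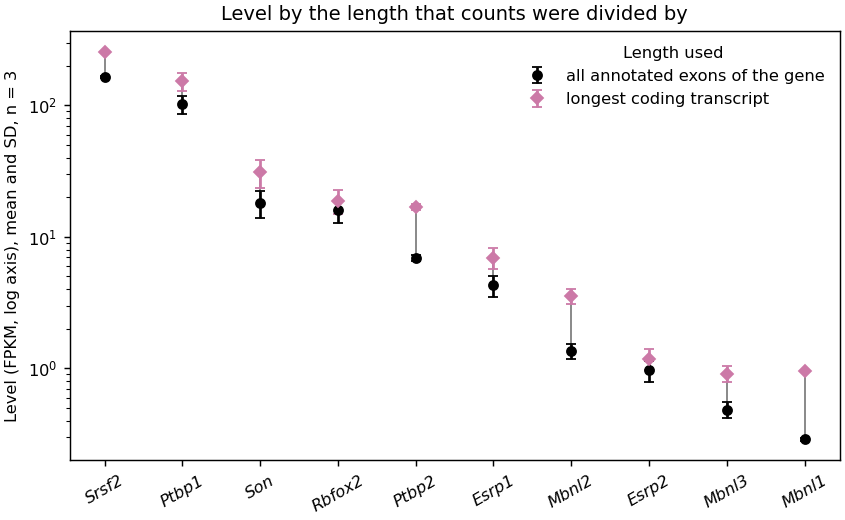
Mean FPKM and SD of the 3 libraries on a log axis, computed with the union of all annotated exons as length (circles) or with the longest coding transcript (diamonds). The gap is widest for Mbnl1, from 0.288 to 0.954 FPKM, and small for Rbfox2 and Esrp2.

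*Mbnl1* has RefSeq starts with very different promoter windows, which are shown as they belong to the member with the fewest reads per base. The first start, at the beginning of the gene in the table (chr3:60472580-60472879, plus strand), held 2 CG, a GC content of 39.3%, and the TATAAA letters. The second (chr3:60500929-60501228, plus strand) held 41 CG and a GC content of 75.0%, more CG than 96.5% of all windows. The counts per gene do not say which start was used. Among the other *Mbnl* genes, the window of *Mbnl2* held 10 CG and that of *Mbnl3* 19, and that of *Son* held 31. The second window of *Mbnl1* held more CG than that of *Srsf2*, and its first window held the fewest of the member windows. A relation of CG content to level was not tested.
Mbnl1, first start: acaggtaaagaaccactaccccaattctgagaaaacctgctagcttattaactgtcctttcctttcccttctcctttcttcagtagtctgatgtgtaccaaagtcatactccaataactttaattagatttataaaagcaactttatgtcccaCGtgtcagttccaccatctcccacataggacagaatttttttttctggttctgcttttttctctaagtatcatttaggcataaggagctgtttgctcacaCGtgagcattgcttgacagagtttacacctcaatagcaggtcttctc
Mbnl1, second start: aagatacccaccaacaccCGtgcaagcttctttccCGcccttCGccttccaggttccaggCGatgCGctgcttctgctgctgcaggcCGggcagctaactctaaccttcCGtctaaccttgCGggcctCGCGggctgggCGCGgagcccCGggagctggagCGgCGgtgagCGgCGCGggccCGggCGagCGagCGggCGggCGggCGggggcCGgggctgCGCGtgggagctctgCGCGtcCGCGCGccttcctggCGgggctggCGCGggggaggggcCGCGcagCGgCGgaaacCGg

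Across the members, 5 of 10 were called different between the libraries, next to 47.2% of all genes tested. Of these, *Ptbp1*, *Son*, *Rbfox2*, and *Esrp1* were lowest in replicate 1 on TMM-scaled counts, as in all counts of this kind here, next to 22.1% of all genes tested that were called and lowest there, and *Srsf2* was not. After the length and GC correction, 6 members were called, next to 37.9% of all genes, as *Ptbp2* joined the others. Between replicates 2 and 3 alone, *Esrp1* was the only member called, next to 8.11% of all genes. The coefficient of variation from edgeR, an estimate drawn towards the trend over all genes, ran from 0.119 for *Ptbp2* to 0.170 for *Son*, around the common value of 0.153. Each member's own SD of FPKM in percent of its mean ran more widely, from 1.77% for *Srsf2* to 23.6% for *Son*.

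Gene length moved with these differences. In 20 groups of genes by length, the median log2 ratio of replicate 1 to the others fell from 0.39 in the shortest genes to -0.53 in the longest. *Son* lay next to the median of its length, *Srsf2* and *Mbnl3* were close to theirs, *Ptbp1*, *Rbfox2*, *Esrp1*, and *Esrp2* lay below, and *Ptbp2*, *Mbnl2*, and *Mbnl1* lay above. The part of RNA quality or library preparation in this was not tested.

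**Figure D4:**
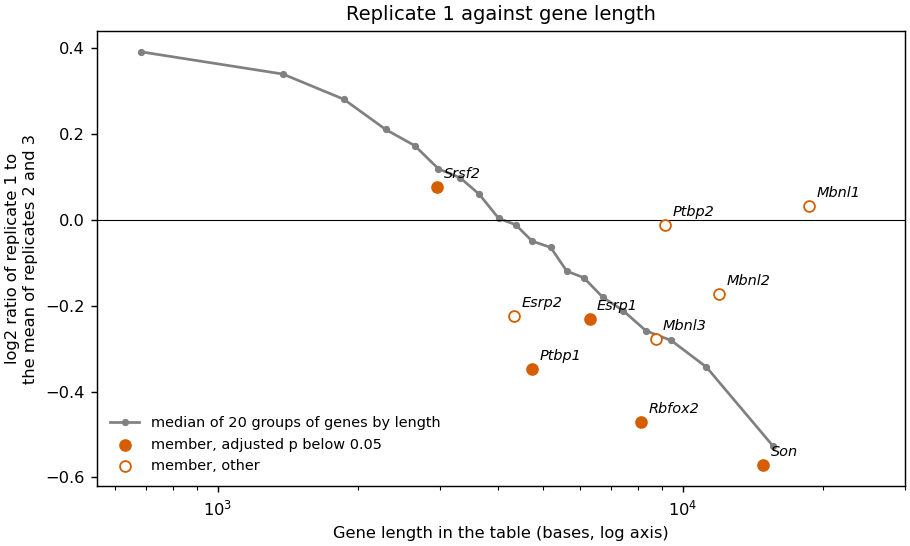
Log2 ratio of replicate 1 to the mean of replicates 2 and 3 (TMM-scaled counts) against gene length in bases on a log axis, for the 10 members (points, filled where the chi-square test called them) and as the median of 20 groups of all genes that average 100 counts or more (line). The line falls from 0.39 to -0.53, Son sits near it at -0.57, Ptbp1 at -0.35 sits below it, and Mbnl1 at 0.033 sits above it.

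The wider splicing machinery was described with 6 lists of 93 genes in all, of which 76 were expressed. Of the 90 tested, 59 (65.6%) differed between the libraries and 19 (21.1%) were called and lowest in replicate 1, next to 47.2% and 22.1% of all genes tested, so the share that was lowest in replicate 1 was near the background. The chi-square test detects smaller differences in genes with more counts, and the lists were not matched to all genes by level. A higher share called therefore does not by itself mean more variation. Among SR proteins and their relatives, 11 of 12 were expressed and 8 of 12 called, from *Srsf9* (116 ± 5.58 FPKM) to *Srsf12* (0.254 ± 0.0599 FPKM). Only *Srsf4* was called and lowest in replicate 1, at 465, 776, and 782 counts, and *Srsf2* at 164 FPKM was above every gene of this list. All 21 genes for hnRNP proteins, the family of RNA-packaging proteins to which PTBP1 belongs, were expressed and 20 were called, 3 of them lowest in replicate 1. They ran from *Hnrnpa1* (560 ± 31.4 FPKM) to *Hnrnpu* (3.56 ± 0.297 FPKM), and *Hnrnpa3*, with 1174, 1033, and 968 counts, differed most in replicate 1.

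Tissue-restricted regulators, which include the paralogs above and families with neuronal members such as Nova, Celf, and Elavl, formed the list with the lowest median (1.11 FPKM), and 13 of 28 were expressed. *Rbpms2* led it at 70.5 ± 2.94 FPKM. *Srrm4*, the regulator of neuronal microexons, was at 0.0816 ± 0.0542 FPKM and differed most in replicate 1, at 3, 19, and 17 counts. Of the 26 tested, 11 were called, 5 of them lowest in replicate 1. *Celf1* and *Khdrbs2* were listed at 0 in all libraries. Of 15 genes of splice site recognition, 14 were expressed and *Sf1*, the branch point binding protein, was also listed at 0. As nearly all cells use *Celf1* and *Sf1*, a level of 0 may be a failed count, and other low levels in this table could be understated as well. Of the 14 tested, 11 were called and 5 of these were lowest in replicate 1, led by *Prpf8* (116 ± 32.9 FPKM, with 10543, 19498, and 17374 counts). After the length and GC correction 11 were called, but only 1 of them was lowest in replicate 1.

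Speckle and paraspeckle genes were all expressed, 10 of 10, from *Nono* (161 ± 5.88 FPKM) to the noncoding RNA *Neat1* (1.69 ± 0.0489 FPKM). Of these, 6 were called and 4 were lowest in replicate 1, namely *Malat1*, *Srrm2*, *Srrm1*, and *Acin1*, the last 3 named after their values were seen. After the length and GC correction, *Malat1* and *Srrm2* were still called and lowest in replicate 1, whereas *Srrm1* was no longer called (log2 ratio 0.0038, adjusted p = 0.769) and *Acin1* was higher there (log2 ratio 0.19, adjusted p = 2.77e-08). *Malat1*, a noncoding RNA of the speckles, was counted 1373, 3397, and 2570 times (log2 ratio -1.02, chi-square test, adjusted p = 2.29e-146), and *Srrm2*, which with *Son* forms the core of the speckle, 4290, 9563, and 8598 times (log2 ratio -0.99). The log2 ratio of *Srrm2* was -0.54 after the length and GC correction, against -0.079 for *Son*. All 7 kinases of SR proteins were expressed, between *Srpk2* (3.22 ± 0.247 FPKM) and *Clk2* (12.9 ± 0.368 FPKM). Of these, 3 were called and 1 was lowest in replicate 1, and *Clk1* (1545, 1354, and 1342 counts) differed most in replicate 1.

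**Figure D5:**
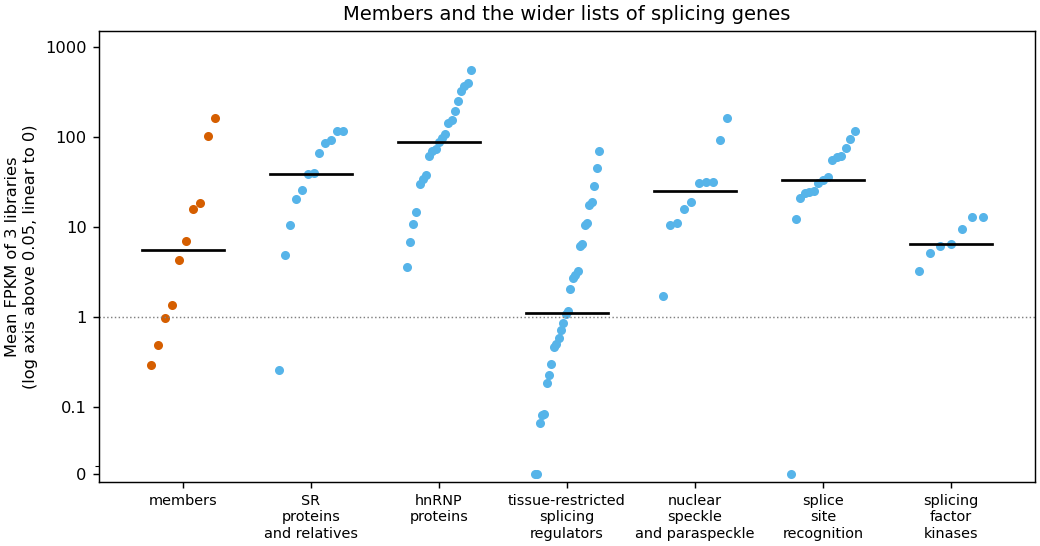
Mean FPKM of the 3 libraries for the 10 members and for each gene of the 6 wider splicing lists, on an axis that is logarithmic above 0.05 and linear to 0, with the median of each list as a bar. The members (median 5.59 FPKM) spread over a wider range than the hnRNP list (median 87.1 FPKM), and the tissue-restricted list has the lowest median, 1.11 FPKM.

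Genes whose exons the members are known to regulate were read as totals. Of 12 such genes, 9 were expressed and 6 were called, next to 47.2% of all genes tested. Of the 12, 4 were called and lowest in replicate 1, next to 22.1% of all genes tested. After the length and GC correction 9 were called, 3 of them lowest there, next to 37.9% of all genes that were called. *Pkm*, the pyruvate kinase gene in which PTB and hnRNP proteins choose between exclusive exons, was at 942 ± 20.04 FPKM. The ESRP targets were far lower. *Fgfr2*, the receptor whose isoforms mark epithelium and mesenchyme, was counted 32, 42, and 43 times (0.206 ± 0.0312 FPKM), *Cd44* was at 0.984 ± 0.134 FPKM, *Ctnnd1* (p120 catenin) at 3.52 ± 0.184 FPKM, *Enah* at 6.35 ± 0.823 FPKM, and *Arhgef11* at 4.14 ± 1.62 FPKM. *Arhgef11* differed most in replicate 1, at 327, 748, and 734 counts (chi-square test, adjusted p = 3.52e-34). *Numb*, a Notch inhibitor, was at 7.46 ± 1.498 FPKM, *Tead1* at 4.05 ± 1.24 FPKM, and *Dlg4*, the gene of the synaptic protein PSD-95, at 2.74 ± 0.176 FPKM. *Foxp1*, in which MBNL proteins act on an exon specific to embryonic stem cells, was at 1.60 ± 0.0799 FPKM, and *Mbd2* at 3.15 ± 0.639 FPKM. *Prdm14*, a pluripotency regulator that SON helps to splice in human cells, was counted 16, 15, and 12 times (0.306 ± 0.0432 FPKM).

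Markers of the cell states these regulators are tied to were read beside them. The summed level of the epithelial list ran from 211 to 239 FPKM, with *Epcam* at 116 ± 11.1 FPKM and *Cdh1* (E-cadherin) at 25.2 ± 3.51 FPKM. Of the mesenchymal list, 4 of 8 were expressed (summed level 93.3 to 95.7 FPKM), mostly *Vim*, and *Snai1*, *Snai2*, and *Twist1* were below 0.5 FPKM on average. Some of these markers also differed in replicate 1, in either direction. *Fn1* (fibronectin) was at 8.87, 18.7, and 16.2 FPKM (log2 ratio -0.90, chi-square test, adjusted p = 1.88e-139) and *Cdh1* at 21.4, 28.2, and 26.2 FPKM (log2 ratio -0.28, adjusted p = 3.30e-11), while *Vim* was highest in replicate 1 (log2 ratio 0.25, adjusted p = 8.14e-28). Of the mesenchymal list, 6 of the 7 tested were called and 3 of these were lowest in replicate 1, next to 47.2% and 22.1% of all genes tested. Of the epithelial list, 4 of 8 were called, next to the same 47.2%, and of these only *Cdh1* was lowest in replicate 1. *Epcam*, *Krt18*, and *Cldn7* were higher there (log2 ratios 0.30, 0.41, and 0.55). The length and GC correction left log2 ratios of 0.093, 0.115, and 0.34 for these genes. *Krt18* was then no longer called (chi-square test, adjusted p = 0.159). For *Fn1*, *Cdh1*, and *Vim* the corrected log2 ratios were -0.50, -0.23, and 0.33. After this correction, 4 genes of each list were called, next to 37.9% of all genes. Of these, 2 epithelial genes and 1 mesenchymal gene were lowest in replicate 1. The part of these markers in the members' differences was not tested. Of the neuronal list, 2 of 8 were expressed (135 to 159 FPKM), namely *Stmn2* at 114 ± 11.8 FPKM and *Tubb3* at 27.99 ± 1.31 FPKM, while *Snap25*, *Syt1*, and *Syp* were below 0.5 FPKM. Of the fibroblast list, 2 of 7 were expressed (5.58 to 8.13 FPKM), namely *Col1a1* at 5.04 ± 1.11 FPKM and *Pdgfrb* at 1.54 ± 0.120 FPKM, with *Dcn* and *Lum* at 0. The muscle list had 1 of 6 (*Des*, summed level 3.43 to 4.46 FPKM), the endoderm list 1 of 6 (*Foxa2*, 1.78 to 2.94 FPKM), and the trophoblast list 1 of 5 (*Ascl2*, 3.05 to 3.25 FPKM), with *Myog*, *Ttr*, and *Tpbpa* at 0. In bulk RNA, fewer cells with a gene and less RNA per cell cannot be told apart, so the low *Mbnl* and *Esrp2* levels may belong to all cells or to some.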

How the data were processed

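Total polyA RNA of 3 ALSC libraries was prepared with a TruSeq kit that does not mark strand and sequenced as paired-end reads. The authors mapped reads to GRCm38 (HISAT2 2.0.5 in the submitters' processing notes) and deposited raw counts per gene with gene lengths. The counting program and its handling of strand and multiple matches are not given in the sources used here. In the deposited table, 3 columns of values match no sample of this series and were not used, and 317 rows without a gene name, which held 0.165% to 0.182% of counts, entered neither library sizes nor tests.

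FPKM was computed from these counts, and the table's gene length equalled the union of GENCODE M21 exons for 99.3% of named genes. Replicates were numbered by the sample titles. The count columns are headed EPI_AL_1 to EPI_AL_3 and were matched to the samples titled ALSC-RNAseq_1 to ALSC-RNAseq_3. This match was inferred from the names, with AL read as Activin A and LIF and EPI as epiblast. Calls between libraries came from a chi-square test on TMM-scaled library sizes with Benjamini-Hochberg adjustment at 0.05. Trends were medians in 20 groups by gene length and GC content over genes averaging 100 counts or more. Promoter windows of 300 bases came from RefSeq (GRCm38.p6), which held 8 windows for 7 members. Alternatives covered scaling, TPM, length, filters, thresholds, trends, and each replicate in turn. R 4.3.3, edgeR 4.0.16, DESeq2 1.42.0 (size factors only), and, in Python 3.11.15, pandas 2.3.3, SciPy 1.17.1, NumPy 2.4.6, and matplotlib 3.10.9 were used.

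The members and lists were chosen with earlier results of these data known. Besides the members and their paralogs, the text names the highest and lowest gene of each wider list by mean FPKM, the gene of each list that differs most in replicate 1 on log2(CPM + 1) with a pseudocount of 1, all genes of the target list, and genes overlapping a member. From the target list, 1 gene is not reported here and was taken out of its counts. Limits from a count of 0 (3 counts) cover counting error only.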

Additional observations from a re-analysis of the deposited data

How the results depend on the processing

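The calls of *Ptbp1*, *Son*, and *Rbfox2* kept their direction under every scaling and trend alternative, and these calls were lost only without replicate 1. Of the main results recomputed, 143 alternative values stayed within the replicate spread or within 1.5 times the count and 39 moved. The first number includes levels and shares without 1 library, whose mean cannot leave the SD of the 3 libraries. It is therefore not a measure of how stable the results are. TPM, which is on another scale, gave 11.9 for *Esrp1*, 2.69 for *Esrp2*, 0.798 for *Mbnl1*, 3.75 for *Mbnl2*, 1.35 for *Mbnl3*, 44.6 for *Rbfox2*, 285 for *Ptbp1*, 19.1 for *Ptbp2*, 455 for *Srsf2*, and 50.9 for *Son*. The length of the longest coding transcript gave 6.97 FPKM for *Esrp1*, 1.19 for *Esrp2*, 0.954 for *Mbnl1*, 3.56 for *Mbnl2*, 0.913 for *Mbnl3*, 153 for *Ptbp1*, 16.8 for *Ptbp2*, 256 for *Srsf2*, and 31.1 for *Son*. Family shares with this length were 85.4% for *Esrp1*, 17.7% for *Mbnl1*, 16.8% for *Mbnl3*, 97.4% for *Rbfox2*, 9.37% for *Ptbp2*, and 6.30% for *Ptbp3*. Shares of counts without division by length were 86.5% for *Esrp1*, 21.01% for *Mbnl1*, 16.4% for *Mbnl3*, 98.8% for *Rbfox2*, 77.3% for *Ptbp1*, 10.2% for *Ptbp2*, and 12.5% for *Ptbp3*.

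Leaving out 1 library gave 1, 4, and 6 members called without replicates 1, 2, and 3. Of all genes, 1302 (8.11% of those tested), 6830, and 7486 were then called. The same gave 1 to 8 called SR genes, 11 to 17 hnRNP genes, 3 to 10 tissue-restricted regulators, 2 to 11 splice site genes, and 1 to 3 kinases. Each of these was lowest without replicate 1, as for all genes. The length and GC correction gave 5 called kinases, and it turned the log2 ratio of replicate 1 to 0.21 for *Ptbp2* and to -0.035 for *Srsf2*. The cause was not tested. No paired analysis was possible because all samples form 1 group. Depth limited *Esrp2*, *Mbnl3*, and *Mbnl1*, with 100 or fewer counts in each library.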

Other observations

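Of the gene models that lie in introns of *Ptbp2* on the same strand, *Gm42664* was counted 5, 45, and 45 times in replicates 1, 2, and 3 (chi-square test with Benjamini-Hochberg adjustment, adjusted p = 8.29e-07, log2 ratio of replicate 1 to the others -3.08) and *Gm43300* 6, 21, and 23 times (adjusted p = 0.0214, log2 ratio -1.78). *Ptbp2* itself had a log2 ratio of -0.011. Over all 43 gene models annotated as sense intronic and tested, 12 were called, next to 47.2% of all genes tested, and 7 (16.3%) were called and lowest in replicate 1, next to 22.1%, with a median log2 ratio of -0.12. The cause was not tested.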
